A study of Mus musculus with 6 samples.

Results

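The astrocyte and radial glia genes described here are 10 genes taken by name from the 49568 gene names of the deposited expression files. They are Slc1a2, Slc1a3, Glul, Fabp7, Apoe, Aldoc, Aldh1l1, Aqp4, Gfap and Sox9, and each name occurred in all 6 samples. The names were chosen for the cell type that the genes mark and not by their values here, although earlier results of these data were known. Each sample pooled 15 neurons that were drawn into pipettes from the preBötzinger complex, the brainstem site of inspiratory rhythm, of a single mouse at postnatal day 2. All 6 mice were Dbx1CreERT2; Rosa26tdTomato, in which tamoxifen-inducible Cre driven from the Dbx1 locus switches on the fluorescent protein tdTomato in cells descended from Dbx1-expressing progenitors. The 3 Dbx1 samples held neurons with tdTomato, and the 3 non-Dbx1 samples held cells that looked like neurons and lacked it. The non-Dbx1 group is therefore defined by neuronal appearance and absence of the reporter. A Dbx1-derived cell in which Cre did not recombine would be counted in it. The paper states that Dbx1-expressing progenitors also give rise to glia, so tdTomato by itself does not separate neurons from glia. The paper found neuronal markers high and the glial markers it examined absent or very low. From these it concluded that both groups were neurons and not glia. Its text does not name those glial markers, so they need not be the 10 genes described here. The paper's mock isolations, which touched the slice without collecting cells, still yielded some cDNA, at far lower concentration than the samples.

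Astrocytes clear glutamate from synapses, turn it into glutamine and hand the glutamine back to neurons. They also supply lipid carried on apolipoproteins, and their end-feet hold the water channels that face blood vessels. Radial glia are the embryonic progenitors that give rise to neurons and later to glia, and they share several of these genes, such as Fabp7 and Slc1a3, with astrocytes. In newborn brainstem, astrocytes are still maturing, so genes of the immature and the mature cell can be present together. Several of the 10 genes are not restricted to these cells, since microglia also make Apoe and some neurons use Aldoc.

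Expression was measured in RPKM, the reads on a gene divided by its exon length and by the depth of the sample, with 6464675 to 9432958 reads on genes per sample. The 10 genes together took 17017 to 40612 of these reads in a sample, which is 0.256% to 0.431%. All 10 neuronal markers examined, such as Tubb3, had reads in every sample, and their summed RPKM was 1705 to 2415 in the Dbx1 samples and 1546 to 2172 in the non-Dbx1 samples. The samples stood apart in markers of other cells. Non-Dbx1 replicate 1 had a summed RPKM of 595 over 11 oligodendrocyte lineage genes and 14058 over 5 erythroid genes, against at most 83.1 and 1198 in the other 5 samples. Non-Dbx1 replicate 2 had 104 over 10 endothelial and pericyte genes, against at most 6.25 elsewhere. Dbx1 replicate 1 had 0.202 over 10 microglia genes, against 14.6 to 47.6 elsewhere. For many of the genes below, values are also given without 1 of these samples. In pooled cells, fewer cells of a type and less RNA per cell cannot be told apart.

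The 10 genes fell into 2 tiers of level. Fabp7, Aldoc and Apoe had a mean RPKM over the 6 samples of 430.5, 223 and 143, which placed them at ranks 43, 149 and 261 among the 27067 genes with reads. The other 7 genes had means between 0.868 and 7.37. Those 3 genes supplied 94.7% to 96.3% of the summed RPKM of the 10 genes in a sample, and the other 7 together summed to 25.5, 29.1 and 41.2 in Dbx1 replicates 1 to 3 and 29.3, 40.8 and 47.9 in non-Dbx1 replicates 1 to 3. At least 3 reads, the number taken here as detection, were found in 57 of the 60 gene and sample values. The 3 exceptions were Aqp4 in non-Dbx1 replicate 1 and Gfap in non-Dbx1 replicates 2 and 3. Such counts cover counting error only.

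**Figure D1:**
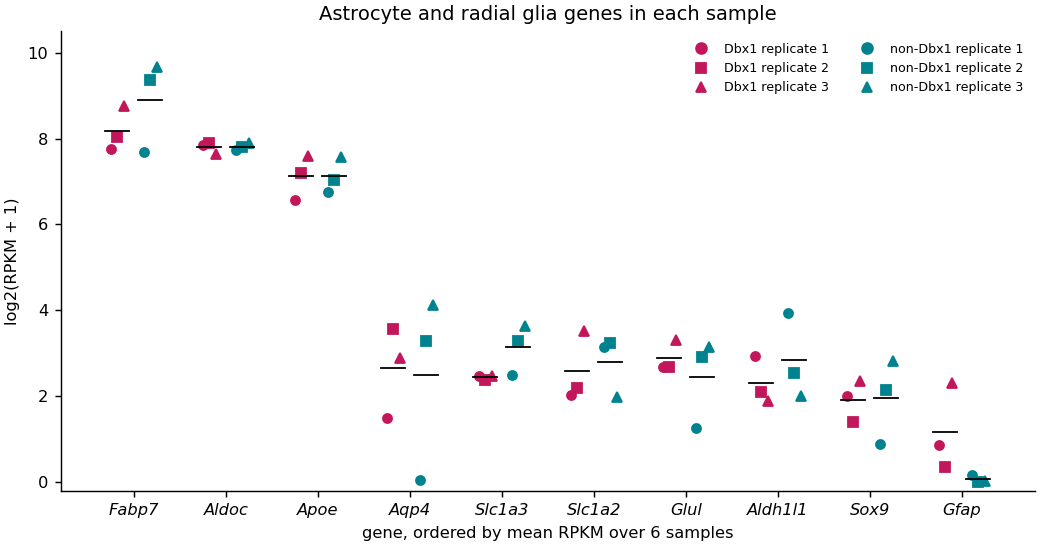
Level of each of the 10 genes in each of the 6 samples, as log2(RPKM + 1), with magenta for Dbx1, teal for non-Dbx1, a marker shape for each replicate and a line for the group mean on that scale. Fabp7, Aldoc and Apoe lie far above the other 7 genes, the Aldoc points almost coincide, Aqp4 drops to 0.0304 RPKM in non-Dbx1 replicate 1, and Gfap is at or near 0 in all non-Dbx1 samples.

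The 250 bases before the RefSeq transcription start (GRCm38.p6) are shown for the genes with the highest and the lowest level of the 10, so that the upstream sequence of both ends of the range can be read beside their values. Fabp7 lies on chromosome 10, and its window is chr10:57784673-57784922 on the plus strand. Gfap lies on chromosome 11, and its window is chr11:102897201-102897450 on the minus strand. Capitals mark 2 motifs searched on both strands, TTGGC, the core letters bound by nuclear factor I proteins, and TGGGAA, the core site of the Notch effector RBPJ.
Fabp7: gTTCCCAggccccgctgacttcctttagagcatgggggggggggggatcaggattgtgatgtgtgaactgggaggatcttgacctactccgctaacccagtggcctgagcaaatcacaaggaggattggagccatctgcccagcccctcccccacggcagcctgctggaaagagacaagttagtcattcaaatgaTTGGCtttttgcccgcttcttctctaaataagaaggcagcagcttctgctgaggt
Gfap: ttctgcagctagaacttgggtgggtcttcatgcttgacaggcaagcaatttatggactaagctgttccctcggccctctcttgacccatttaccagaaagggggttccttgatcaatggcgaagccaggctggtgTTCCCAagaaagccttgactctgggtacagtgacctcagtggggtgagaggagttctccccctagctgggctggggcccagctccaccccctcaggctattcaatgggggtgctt
The Fabp7 window held 1 TTGGC and 1 TGGGAA, the latter on the reverse strand, and the Gfap window held 1 TGGGAA on the reverse strand. TTGGC was present in 41.5% and TGGGAA in 21.6% of 32851 promoter windows of this length. One more motif, TTCNNNGAA, the palindrome bound by STAT factors, was present in 7.02% of all windows and in neither of these. Windows were found for 8 of the 10 genes. Among those, TTGGC was present upstream of Aldoc, Apoe, Fabp7, Glul and Slc1a2, TGGGAA upstream of Aldh1l1, Aldoc, Fabp7 and Gfap, and TTCNNNGAA upstream of Aldoc and Slc1a3. These matches are descriptions of the letters and not of binding.

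Dbx1 and non-Dbx1 samples were compared for each gene by the difference in mean log2(RPKM + 1), hereafter L2FC, which is above 0 where Dbx1 samples were higher. None of the 10 genes passed a false discovery rate (FDR) of 0.1 in limma, and none had an unadjusted p under 0.05. Over all 17614 genes tested, 1 passed (0.00568%) and 5.2% had an unadjusted p under 0.05. The paper's own test of counts from the same samples, with DESeq2, called more genes at FDR 0.1, among them Gata2, Hif1a and Pbx3. The small number of calls here therefore belongs to this fit and need not mean that few genes differ. With voom on reads recovered from the RPKM values, the number of the 10 genes past either threshold was also 0. The lowest FDR among the 10 was 0.912. For 4 genes L2FC lay above 0 and for 6 below, with a median of −0.02, beside a median of 0.0089 over all genes tested. Without non-Dbx1 replicate 1 the median of the 10 was −0.16, with 2 above 0 and 8 below, and over all samples left out in turn it ranged from −0.24 to 0.12. The groups did not overlap for 2 of the 10 genes, Gfap with Dbx1 higher and Slc1a3 with non-Dbx1 higher, and the same held for 10.6% of all genes tested. The exact permutation test beside it was two-sided, and with 3 samples in each group its p cannot be smaller than 0.1.

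**Figure D2:**
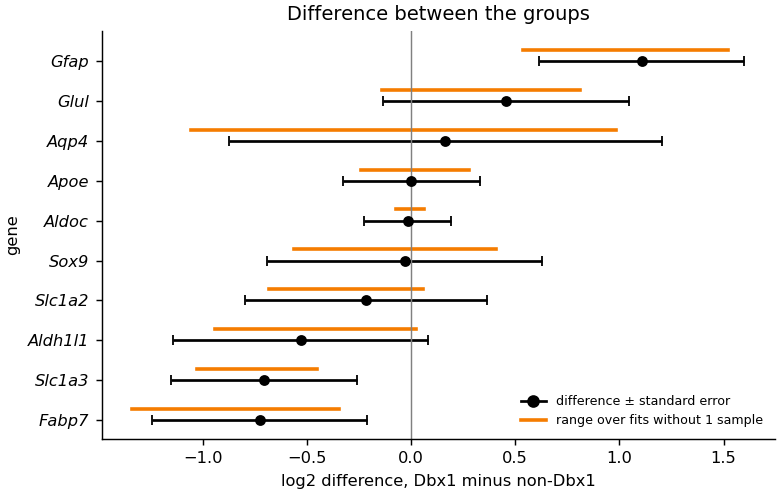
L2FC of each gene (Dbx1 minus non-Dbx1, log2 scale) as a black point with limma's standard error, and in orange the range of L2FC when each sample was left out in turn. Only Gfap, Slc1a3 and Fabp7 stayed on one side of 0 in all fits that left out a sample, and none of the 10 passed FDR 0.1.

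Slc1a2, Slc1a3 and Glul carry out the astrocyte side of the glutamate cycle. Slc1a3, which encodes the glutamate transporter GLAST of radial glia and astrocytes, lies on chromosome 15 (mm10, 8634124 to 8710764, minus strand). Its RPKM measured 4.54, 4.18 and 4.53 in Dbx1 samples and 4.64, 8.72 and 11.5 in non-Dbx1 samples. The Dbx1 samples were almost alike (4.42 ± 0.207, mean ± SD, n = 3), the non-Dbx1 samples spread widely (8.29 ± 3.46, n = 3), and the lowest non-Dbx1 value lay only just above the highest Dbx1 value. L2FC measured −0.70 (SE 0.446, limma FDR = 0.936, exact permutation p = 0.1). Without non-Dbx1 replicates 1, 2 and 3 in turn it measured −1.03, −0.63 and −0.45. The endothelial and pericyte sum was also higher in every non-Dbx1 sample (3.21 to 104, against 0.0875 to 1.68 RPKM), with reads for 9 of its 10 genes and Kcnj8 at 0. The erythroid sum was likewise higher in every non-Dbx1 sample (733 to 14058, against 90.3 to 507), with reads for 5 of 5 genes. Their part in the Slc1a3 values was not tested.

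Slc1a2 encodes GLT-1, the main glutamate transporter of mature astrocytes, and lies on chromosome 2 (102658659 to 102790784, plus strand). Its RPKM measured 3.11, 3.53 and 10.4 in Dbx1 samples and 7.84, 8.47 and 2.97 in non-Dbx1 samples. The single high Dbx1 value and the single low non-Dbx1 value, both of replicate 3, made the groups overlap. L2FC measured −0.21 (SE 0.581, FDR = 0.982), and it ranged from −0.68 to 0.06 when samples were left out in turn.

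Glul encodes glutamine synthetase, which turns glutamate into glutamine in astrocytes, and lies on chromosome 1 (153899944 to 153909723, plus strand). Its RPKM measured 5.45, 5.42 and 8.98 in Dbx1 samples and 1.39, 6.55 and 7.89 in non-Dbx1 samples. Only non-Dbx1 replicate 1 lay clearly below the rest. L2FC measured 0.46 (SE 0.590, FDR = 0.960) and −0.14 without that sample.

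Fabp7 and Apoe carry lipids. Fabp7 encodes brain lipid-binding protein, a fatty acid carrier of radial glia and immature astrocytes (chromosome 10, 57784881 to 57788450, plus strand). Its RPKM measured 216, 260.2 and 430.5 in Dbx1 samples and 205, 659.5 and 812 in non-Dbx1 samples. It was the most variable of the 3 abundant genes, with 3.97 times between its lowest and highest sample, and the lowest and the highest value both came from non-Dbx1 samples. Fabp7 ranked 10 among all genes in non-Dbx1 replicate 3 and 181 in Dbx1 replicate 1. Its share of the summed RPKM of the 10 genes was 37.0% to 63.1%. The mean ± SD was 302 ± 113 in Dbx1 and 559 ± 316 in non-Dbx1 samples (n = 3 each), with L2FC −0.73 (SE 0.517, FDR = 0.940; exact permutation p = 0.4). Without non-Dbx1 replicate 1, the sample with the myelin and globin transcripts, L2FC measured −1.34, and without non-Dbx1 replicate 3 it measured −0.35.

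Apoe encodes apolipoprotein E, the main lipid carrier secreted by astrocytes (chromosome 7, 19696109 to 19699188, minus strand). Its RPKM measured 94.1, 146 and 194 in Dbx1 samples and 107, 131 and 189.6 in non-Dbx1 samples. The samples of both groups spanned nearly the same range, so that the mean ± SD was 144 ± 49.8 and 142 ± 42.6 (n = 3 each). L2FC measured 0.0013 (SE 0.328, FDR = 0.9997), although single samples moved it between −0.24 and 0.28. Microglia also transcribe Apoe. The summed RPKM of 10 microglia genes was 0.202, 14.6 and 29.7 in Dbx1 replicates 1 to 3 and 36.4, 17.3 and 47.6 in non-Dbx1 replicates 1 to 3, with reads for 8 genes and with Tmem119 and Itgam at 0 throughout. Their part in the Apoe values was not tested.

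Aldoc and Aldh1l1 are metabolic enzymes used to label astrocytes. Aldoc encodes aldolase C, a glycolytic enzyme (chromosome 11, 78322968 to 78327781, plus strand). Its RPKM measured 229, 239 and 199 in Dbx1 samples and 213, 224 and 237 in non-Dbx1 samples. This was the steadiest of the 10 genes, with a coefficient of variation of 6.91% over the 6 samples and 1.2 times between the lowest and highest. The mean ± SD was 222 ± 21.2 and 224 ± 11.96 (n = 3 each), with L2FC −0.02 (SE 0.209, FDR = 0.995). Leaving out any 1 sample kept L2FC between −0.07 and 0.06.

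Aldh1l1 encodes a folate-metabolizing dehydrogenase widely used as a pan-astrocyte label (chromosome 6, 90486427 to 90600203, plus strand). Its RPKM measured 6.69, 3.27 and 2.69 in Dbx1 samples and 14.4, 4.87 and 3.05 in non-Dbx1 samples. The highest value was in non-Dbx1 replicate 1, where Fabp7, Aqp4, Sox9 and Glul each had their lowest. L2FC measured −0.53 (SE 0.613, FDR = 0.960) and 0.02 without that sample.

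Aqp4 and Gfap belong to the structure of the mature astrocyte. Aqp4 encodes the water channel of astrocyte end-feet (chromosome 18, 15389496 to 15410982, minus strand). Its RPKM measured 1.81, 10.8 and 6.45 in Dbx1 samples and 0.0304, 8.76 and 16.4 in non-Dbx1 samples. The lowest value rested on 1 read, against 73 to 786 reads in the other 5 samples, which gave Aqp4 the widest range of the 10 genes on the log2(RPKM + 1) scale. L2FC measured 0.16 (SE 1.04, FDR = 0.991), but it measured −1.06 without non-Dbx1 replicate 1 and 0.98 without non-Dbx1 replicate 3, so that even its sign turned on 1 sample.

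Gfap encodes the intermediate filament protein that marks mature and reactive astrocytes (chromosome 11, 102887336 to 102900912, minus strand). Its RPKM measured 0.822, 0.271 and 3.96 in Dbx1 samples and 0.126, 0 and 0.0217 in non-Dbx1 samples, from 32, 10 and 135 reads and from 4, 0 and 1 reads. Every Dbx1 sample lay above every non-Dbx1 sample, and Dbx1 replicate 3 held most of the reads. A count of 0 in non-Dbx1 replicate 2 allowed up to 3 reads, or 0.0716 RPKM. The mean ± SD was 1.69 ± 1.99 and 0.0494 ± 0.0676 (n = 3 each), with L2FC 1.11 (SE 0.491, limma FDR = 0.912; exact permutation p = 0.1) and 0.54 without Dbx1 replicate 3. At such low levels the size of the difference depends on the scale, and L2FC measured 2.99 with a pseudocount of 0.1 in place of 1 and 4.65 with voom on reads. The endothelial and pericyte sum and the erythroid sum given above were lower in every Dbx1 sample, opposite to Gfap, and their part in its values was not tested.

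Sox9 encodes a transcription factor of glial progenitors that astrocytes keep (chromosome 11, 112782224 to 112787760, plus strand). Its RPKM measured 3.04, 1.64 and 4.10 in Dbx1 samples and 0.860, 3.39 and 6.10 in non-Dbx1 samples. The 3 Dbx1 values all lay inside the range of the non-Dbx1 values. L2FC measured −0.03 (SE 0.661, FDR = 0.998), and ranged from −0.56 to 0.41 when samples were left out in turn.

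The 10 genes did not rank the samples in the same order. Dbx1 replicate 3 had the highest value of Slc1a2, Gfap, Glul and Apoe, and non-Dbx1 replicate 3 had the highest value of Fabp7, Slc1a3, Aqp4 and Sox9. Non-Dbx1 replicate 1 had the lowest value of Fabp7, Aqp4, Sox9 and Glul but the highest of Aldh1l1. The sum over the 10 genes was 565, 674 and 864 RPKM in Dbx1 replicates 1 to 3 and 554, 1055 and 1287 in non-Dbx1 replicates 1 to 3. The range between samples narrowed to 349 to 474 RPKM when Fabp7 was left out of the sum.

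By mean RPKM, the descending order was Fabp7, Aldoc, Apoe, Aqp4, Slc1a3, Slc1a2, Glul, Aldh1l1, Sox9 and Gfap. Aldoc exceeded Apoe in 6 of 6 samples, Apoe exceeded Aqp4 in 6 of 6 and Sox9 exceeded Gfap in 6 of 6. Each of the other neighbours in this order was above the next in only 3 or 4 of 6 samples, so the order among Aqp4, Slc1a3, Slc1a2, Glul, Aldh1l1 and Sox9 was not settled beyond the spread between samples. Levels of different genes also depend on the exon length by which the authors divided. The length recovered for Apoe was 6746 bases, 3.16 times the 2138 bases of its merged exons in GENCODE vM21, and for Aldoc it was 6072 against 3263 bases. With merged lengths the mean RPKM was 520.4 for Fabp7, 453 for Apoe and 416 for Aldoc, and Apoe then came before Aldoc. With merged lengths Fabp7 exceeded Apoe in 2 of 6 samples and Apoe exceeded Aldoc in 3 of 6, so the order of these 3 was not settled either. L2FC moved little with the length, by 0.097 at most, for Gfap, from 1.11 to 1.2.

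Members were next set beside a related gene in the same sample, with an exact two-sided sign-change permutation test over the 6 samples and adjustment over 10 pairs. The differences are in log2(RPKM + 1). In 5 pairs the same gene was higher in 6 of 6 samples. That gave the smallest p that 6 samples allow (exact permutation p = 0.0312) and an adjusted p of 0.0625, above the threshold of 0.05. With that smallest p and 10 pairs, a pair could pass only if more pairs than these 5 kept one direction throughout. The adjusted p therefore does not measure the size of a difference. Fabp7 exceeded Fabp5, its epidermal-type relative that neurons also express, by 3.47 ± 0.798 (mean ± SD, n = 6). Apoe exceeded Clu, the other abundant apolipoprotein of astrocytes, by 1.35 ± 0.564, and Aldh1l1 exceeded its mitochondrial relative Aldh1l2 by 1.56 ± 0.867. Gfap lay below Vim, the intermediate filament gene of radial glia and immature astrocytes, with a difference of −1.83 ± 1.16 and mean RPKM of 0.868 against 4.77. That difference was −1.31, −1.18 and −0.07 in Dbx1 replicates 1 to 3 and −2.79, −2.70 and −2.92 in non-Dbx1 replicates 1 to 3.

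The fifth pair was Aldoc and Aldoa, the aldolase that most cells use, with 223 against 188 RPKM and a difference of 0.26 ± 0.149. That order rested on the exon lengths, since merged lengths gave −0.01 and Aldoc higher in 3 of 6 samples. The other 4 pairs named here kept their direction with merged lengths.

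The glutamate transporters were close in level. Slc1a3 exceeded Slc1a2 in 4 of 6 samples (0.10 ± 0.941), and the glial transporters lay below Slc1a1, the transporter that neurons use, in 4 samples for Slc1a3 (−0.21 ± 1.14) and in 5 samples for Slc1a2 (−0.32 ± 0.820). Slc1a1 measured 6.36, 7.26 and 13.2 RPKM in Dbx1 samples and 11.9, 2.83 and 5.14 in non-Dbx1 samples. Sox9 and Sox2, a factor of neural stem cells, differed by −0.15 ± 2.22, with Sox9 higher in 4 of 6 samples. The lowest adjusted p of these 4 pairs was 0.536, for Slc1a2 and Slc1a1.

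**Figure D3:**
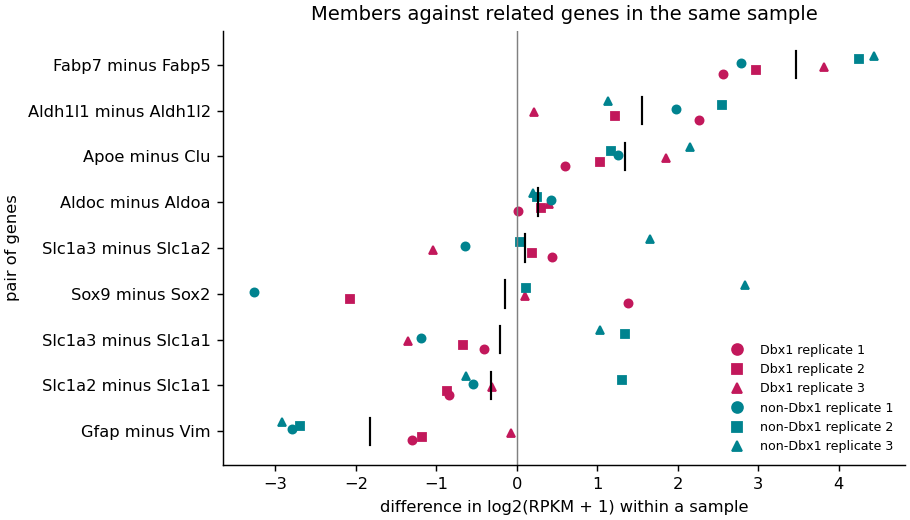
Difference in log2(RPKM + 1) between a gene and its relative within each of the 6 samples, with colours for groups, marker shapes for replicates and a bar for the mean of 6. The pairs with Fabp5, Aldh1l2, Clu and Aldoa lie to the right of 0 in all samples and the pair with Vim to the left, while the remaining 4 pairs straddle 0.

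Wider gene lists of the same cells were read in the same fit. All 30 other astrocyte genes had reads, 0 passed FDR 0.1 in either direction, and 4 had an unadjusted p under 0.05, all with non-Dbx1 higher, as did 2.48% of all genes tested. Their median L2FC was −0.25, with 12 above 0 and 18 below, beside a median of 0.0089 over all genes, and the median was −0.31 without non-Dbx1 replicate 1 but 0.080 without Dbx1 replicate 1, with 17 above 0 and 13 below. The groups did not overlap for Mlc1, Plpp3, Cbs and Mt1, each with non-Dbx1 higher, or 4 of 30 genes, where 5.24% of all genes tested lay apart in that direction. Mt1, a metal-binding metallothionein, measured 11.3, 16.4 and 46.0 RPKM in Dbx1 samples and 56.0, 72.8 and 70.4 in non-Dbx1 samples (L2FC −1.63, SE 0.460, FDR = 0.801). Mlc1, a membrane protein of astrocyte end-feet, measured 0.293, 5.98 and 7.62 and 24.1, 8.38 and 17.5 (L2FC −1.94, SE 0.747, FDR = 0.912). The zinc transporter Slc39a12 went the other way, as Gfap did, with 1.40, 0 and 10.1 RPKM in the Dbx1 samples against at most 0.0392 in the non-Dbx1 samples (L2FC 1.55, SE 0.775, FDR = 0.912). Its groups overlapped at 0, and without Dbx1 replicate 3 its L2FC measured 0.60. Without non-Dbx1 replicate 1, which had the highest Mlc1, L2FC measured −1.63 for Mlc1 and −1.75 for Mt1. Without non-Dbx1 replicate 2 it measured −2.34 for Mlc1 and −1.56 for Mt1. Without Dbx1 replicate 1, which had the lowest of both, it measured −1.07 and −1.23. The endothelial and pericyte sum and the erythroid sum were higher in every non-Dbx1 sample, as these 4 genes were, and their part in the values was not tested.

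The most abundant genes of that list were the protease inhibitor Cst3, with a mean of 503 RPKM, the matrix protein Sparcl1, with 106, and Clu, with 54.8. The list summed to 756 to 1146 RPKM in the Dbx1 samples and 906 to 1018 in the non-Dbx1 samples, and the groups overlapped. Cst3 and Sparcl1 had L2FC of 0.24 and 0.12 (FDR = 0.960 and 0.980).

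All 18 other radial glia and progenitor genes had reads, and 0 passed FDR 0.1, and 1 had an unadjusted p under 0.05 with non-Dbx1 higher (2.48% of all genes tested). Their median L2FC was −0.12, with 7 above 0 and 11 below, and the median ranged from −0.37 to −0.017 with a sample left out. Hopx and Vim, 2 of 18 genes, had groups that did not overlap, with non-Dbx1 higher, where 5.24% of all genes tested did so. Hopx encodes a homeodomain-only protein of radial glia and astrocytes. It measured 1.06, 4.26 and 5.50 RPKM in Dbx1 samples and 25.4, 8.16 and 12.2 in non-Dbx1 samples (L2FC −1.83, SE 0.588, FDR = 0.870). Its L2FC measured −1.41 without non-Dbx1 replicate 1 and −2.18 without non-Dbx1 replicate 2. Vim measured 3.50, 1.87 and 4.21 and 6.79, 5.50 and 6.76 (L2FC −0.85, SE 0.471, FDR = 0.924), a direction opposite to that of Gfap, the filament gene of the mature cell. The endothelial and pericyte sum and the erythroid sum were higher in every non-Dbx1 sample, as Hopx and Vim were, and their part in these values was not tested. Hes5, a Notch target, had L2FC −1.13 (FDR = 0.936), or −0.65 without non-Dbx1 replicate 2, with overlapping groups. The 3 highest of the list were Dbi, Id4 and Id3, at 101, 72.5 and 13.4 RPKM.

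**Figure D4:**
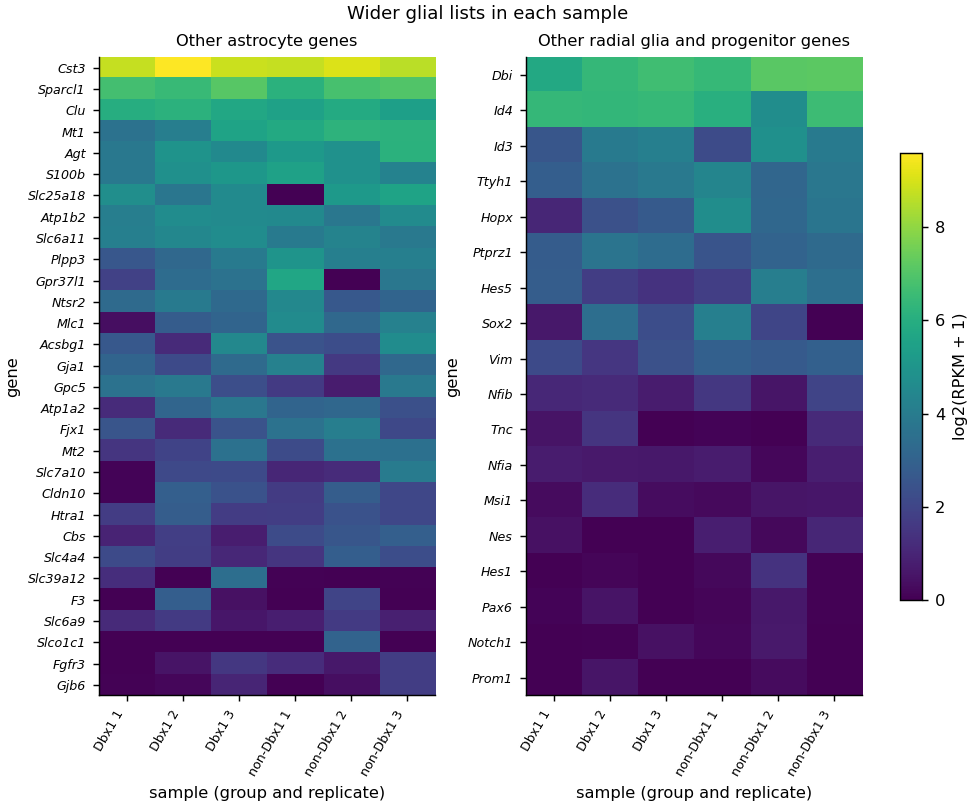
Level of 30 other astrocyte genes (left) and 18 other radial glia and progenitor genes (right) in each of the 6 samples, as colour on the log2(RPKM + 1) scale, genes ordered by mean RPKM. Cst3, Sparcl1, Clu, Dbi and Id4 are high in every sample apart from a lower Id4 in non-Dbx1 replicate 2, and most of the remaining genes vary from sample to sample without a split by group.

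The partners of the 3 glutamate genes were mostly neuronal transporters and enzymes. Of 12 glutamate and glutamine cycle genes, 10 were tested, 0 passed FDR 0.1 and 2 had an unadjusted p under 0.05 with Dbx1 higher (2.73% of all genes tested), with 7 L2FC values above 0 and 3 below and a median of 0.20, which ranged from 0.0091 without Dbx1 replicate 3 to 0.51 without Dbx1 replicate 1. Slc38a2, a neuronal glutamine importer, measured 20.6, 24.4 and 32.7 RPKM in Dbx1 samples and 7.96, 15.5 and 13.4 in non-Dbx1 samples (L2FC 1.04, SE 0.337, FDR = 0.870). Slc17a6, the vesicular glutamate transporter of excitatory brainstem neurons, measured 47.2, 128 and 54.9 and 31.9, 35.1 and 13.6 (L2FC 1.44, SE 0.466, FDR = 0.870). Both had groups that did not overlap, with Dbx1 higher, where 5.35% of all genes tested did so. Glud1 and Slc38a1, the other abundant genes of the list, had means of 41.2 and 19.2 RPKM and overlapping groups.

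Of 12 apolipoprotein and lipid handling genes, 11 were tested and 0 passed FDR 0.1 or had an unadjusted p under 0.05. Their median L2FC was −0.01 (−0.26 to 0.11 with a sample left out), 5 were above 0 and 6 below, and no gene had groups that lay apart. Clu and Srebf2, the latter a regulator of sterol synthesis, were the highest, at 54.8 and 29.1 RPKM. The list summed to 119 to 133 RPKM in the Dbx1 samples and 102 to 122 in the non-Dbx1 samples, with a narrow overlap.

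The summed levels of oligodendrocyte, vessel and erythroid markers set single samples apart. Oligodendrocyte lineage genes summed to 32.6 to 78.5 RPKM in the Dbx1 samples and 73.7 to 595 in the non-Dbx1 samples, with reads for 11 of 11 genes. Olig1, a factor of the whole lineage, and the myelin genes Cnp and Mbp were the highest, with means of 38.2, 34.8 and 29.3 RPKM, or 33.4, 14.6 and 4.06 without non-Dbx1 replicate 1. Of the other lists, the most abundant genes were the complement genes C1qb and C1qa and the protease Ctss for microglia (means of 13.3, 4.92 and 3.11 RPKM), Cldn5, Esam and Ly6c1 for vessels (10.9, 3.35 and 3.19, but 0.346, 0.546 and 0.0258 without non-Dbx1 replicate 2), the globins Hbb-bs, Hbb-bt and Hba-a1 for erythroid cells (1418, 1011 and 261, but 254, 95.2 and 148 without non-Dbx1 replicate 1) and Tubb3, Stmn2 and Snap25 for neurons (876, 443 and 220.0). Aldh1l1 was highest, and Fabp7, Aqp4, Sox9 and Glul lowest, in the sample with the sum of 595. The part of the myelin transcripts in these values was not tested. Of 5 ependymal genes, 2 had reads, with a sum of at most 0.705 RPKM, and Ccdc153, Tmem212 and Dynlrb2 were at 0 in all samples.

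**Figure D5:**
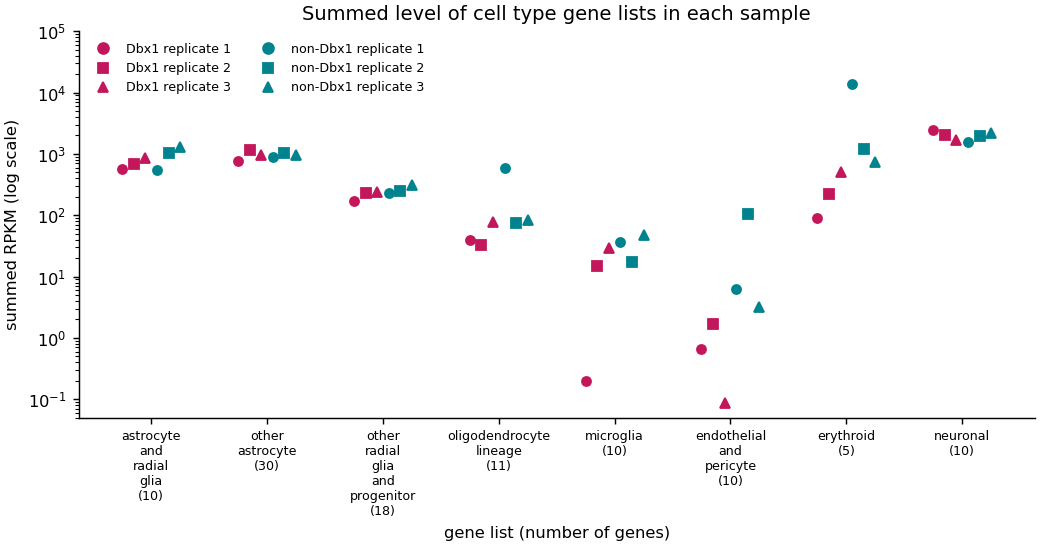
Summed RPKM (log scale) over each gene list in each of the 6 samples, with the number of genes in brackets, colours for groups and marker shapes for replicates. On this scale the astrocyte, radial glia and neuronal sums each spread less between samples than the sums of the other lists shown. The oligodendrocyte and erythroid sums peak in non-Dbx1 replicate 1 and the endothelial and pericyte sum in non-Dbx1 replicate 2. The microglia sum is lowest in Dbx1 replicate 1, at 0.202 RPKM.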

How the data were processed

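RNA of 6 samples of 15 neurons, 3 Dbx1 and 3 non-Dbx1, each from a different mouse, was made into cDNA with an oligo-dT template-switching kit and sequenced as single-end reads. The authors aligned reads to mm10 with TopHat2, counted them on Ensembl genes with HTSeq and deposited RPKM values, normalized by exon length and by reads on genes in that sample. The Ensembl release is not given in the sources used here.

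The 10 genes and all lists and pairs were chosen with earlier results of these data known. Reads and exon lengths were recovered from the steps between RPKM values, which were whole for 27065 of 27067 genes (relative tolerance 1e-07). Reads from amplified cDNA are not independent molecules, and intervals and floors of 3 reads cover counting error only. Positions came from GENCODE vM21 (GRCm38). HTSeq was run without strand. Exons of Slc1a2, Aldh1l1 and Glul share bases with other annotated genes. Slc1a2 shares 189 bases with the antisense gene Gm13872. Aldh1l1 shares 499 with the antisense gene Gm15756 and 105 with Gm45901. Glul shares 116 with Teddm2 and 93 with Mir8114. Under that counting, reads over shared bases are ambiguous and not counted for either gene.

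The authors tested counts with DESeq2. The deposited unit is RPKM, so log2(RPKM + 1) was tested with limma 3.58.1 (lmFit, eBayes with a trend) in R 4.3.3 on the 17614 genes that had reads in 3 or more samples. Tests were two-sided, p-values were adjusted by Benjamini-Hochberg, and an FDR under 0.1 counted as passing. The fit was run on simulated reads with the same dispersion for every gene and large changes in well-covered genes. That run does not measure the power of the fit for the 10 genes. P-values measure the spread between these samples. The labels do not say that replicate numbers pair samples, and all 6 came from different mice. Genes named beyond the 10 were those of the pairs, the 3 highest of each list and the 3 largest absolute L2FC of the 2 glial lists. Plpp3, Cbs, Slc38a2 and the genes listed at 0 were named after their values were seen. Of the pairs and the highest genes of lists, 1 each is not reported here. Alternatives were a pseudocount of 0.1, 2 other filters, median-of-ratios size factors, quantile normalization, no trend, a replicate block, voom on reads, each sample left out and the ratio of group means. Merged exon lengths for the pairs and for L2FC of the 10 genes, and list medians and marker means with a sample left out, were added after seeing the data. Promoter windows came from RefSeq (GRCm38.p6), and no window was found for Aqp4 and Sox9. Python 3.11.15, numpy 2.4.6, pandas 2.3.3, scipy 1.17.1 and matplotlib 3.10.9 were used.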

Additional observations from a re-analysis of the deposited data

How the results depend on the processing

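Gfap had 0 to 4 reads in the non-Dbx1 samples, so its L2FC depends on the pseudocount. The count of the 10 genes past FDR 0.1 was 0 in all 14 alternatives, with a lowest FDR of 0.784, and with Gfap untested under the filter that asked for 1 RPKM in 3 samples. At an unadjusted p under 0.05 it was 1 with a pseudocount of 0.1, 1 when Dbx1 replicate 2 was left out and 2 when non-Dbx1 replicate 1 was. Over all genes, calls with non-Dbx1 higher numbered 1 in the reported fit, 0 with a pseudocount of 0.1, 0 with genes above 0 in at least 1 sample, 3 without a trend, 0 with voom on reads and 0 to 1 with a sample left out. Calls with Dbx1 higher numbered 0, and 0 to 1 with a sample left out. With the replicate number as a block, calls with non-Dbx1 higher numbered 0, and no call of the 10 genes changed. Over all genes tested, same-numbered samples did not deviate together within their groups (correlations −0.11, 0.02 and −0.05). Among the 10 genes the block lowered the standard error for some, such as Fabp7 from 0.517 to 0.352 and Aqp4 from 1.04 to 0.652. The block raised it for others, such as Slc1a2 from 0.581 to 0.674. Whether same-numbered samples shared a preparation was not tested.

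Of 149 alternative values of L2FC for the 10 genes, 131 kept their direction and side of the threshold and 18 turned sign. With a sample left out, L2FC ranged from −1.34 to −0.35 for Fabp7, −1.03 to −0.45 for Slc1a3, 0.54 to 1.52 for Gfap, −0.68 to 0.055 for Slc1a2, −0.94 to 0.023 for Aldh1l1, −1.06 to 0.98 for Aqp4, −0.56 to 0.41 for Sox9, −0.14 to 0.81 for Glul, −0.24 to 0.28 for Apoe and −0.071 to 0.063 for Aldoc. Aqp4 was −0.40 as the log2 ratio of group means, Sox9 0.047 with a pseudocount of 0.1 and Apoe −0.040 with voom. Among the pairs, Sox9 minus Sox2 was 0.30 with a pseudocount of 0.1 and −0.75 to 0.47 with a sample left out. Slc1a3 minus Slc1a1 was 0.14 with merged lengths, 0.39 in non-Dbx1 samples alone and −0.52 to 0.018 with a sample left out. Slc1a3 minus Slc1a2 was −0.14 in Dbx1 samples alone and −0.21 to 0.33 with a sample left out. Slc1a2 minus Slc1a1 was 0.042 in non-Dbx1 samples alone, and Aldoc minus Aldoa −0.0078 with merged lengths. Detection was 56 of 60 at a floor of 10 reads. Where no construction of the alternative is named, the cause was not tested.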

Other observations

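Among 13162 tested genes with a mean RPKM of at least 1, the profiles over the 6 samples most like that of Fabp7, by root mean square difference of centred log2(RPKM + 1), were Zcchc6 (0.125), Gosr1 (0.155) and Gatad2a (0.156). Those most like Aqp4, the gene with the widest range, were Ogdhl (0.321), Gm13868 (0.411) and Anxa6 (0.453). With 6 samples and so many genes searched, these are descriptions of likeness only.

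The exon length recovered from the deposited values equalled the sum of distinct annotated exons in 28.6% and the merged exon length in 13.5% of 12127 genes with at least 200 reads, and its median ratio to the merged length was 1.37. For Sox9 the recovered and merged lengths were both 4135 bases, and for Aqp4 the recovered length of 5082 bases was below the merged 6233.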
